A study of Drosophila melanogaster with 53 samples.

Results

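20-hydroxyecdysone (20E) sets a cascade of receptors in motion. The 10 Drosophila nuclear receptor genes svp, Hnf4, ERR, Hr78, Hr96, Hr83, Hr51, dsf, tll and kni are grouped here as lying outside it. They were taken by symbol from the 15598 genes of the deposited RNA-seq table, and all 10 have a row there, with 22 of the 28704 transcripts of the second table. S2 cells, a line that grew out of Drosophila embryos and has features of blood cells, were treated for 1 h with 0.3 μM 20E dissolved in DMSO, or with the same amount of DMSO. No dsRNA was given to the cells of either RNA-seq group, and the sample labels list 2 libraries per group without saying whether they came from separate cultures. For each condition 1 value per gene and transcript was deposited, in FPKM, a fragment number divided by transcript length and by the size of the library, and for genes also the authors' lower and upper confidence bounds. No SD and no test over replicates can therefore be given, and "bounds apart" below means that the lower bound in one condition lay above the upper bound in the other.

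Nuclear receptors are transcription factors that bind short DNA sites with a pair of zinc fingers, and most of them carry a pocket for a small ligand. In the ecdysone cascade the hormone binds the EcR/Usp dimer, which switches on early genes, several of them receptor genes themselves. For the receptors described here other duties are known, and whether any of them also acts within the cascade was not tested. Hnf4 directs the burning of fat, ERR glycolysis and the growth metabolism of larvae, Hr96 the uptake of sterols and triglycerides, and Hr78 larval growth and molting. Hr51 acts in neurons of the mushroom body, dsf in sexual behaviour, svp in photoreceptors, heart and neuroblasts, while tll and kni pattern the early embryo.

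The P box is the start of the helix of the first zinc finger that reads the DNA half-site. Its coding bases differ between the 9 receptors whose sequence is given, but its residues are not different in all of them. The coding bases of that stretch are shown as a feature that the choice of genes did not use and that differs between them. They were read from the Release 6 reference genome (RefSeq annotation, by FlyBase gene identifier) and are not the sequence of S2 cells. Each line runs 5′ to 3′ along the coding strand over 8 codons, and capitals mark the 3 codons of the P box positions that tell half-sites apart.
Hnf4: tgcGACGGCtgcaaaGGAttcttc
Hr78: tgcGAAGGCtgcaagGGAttcttc
Hr96: tgcGAGAGCtgcaagGCGttcttc
ERR: tgtGAGGCTtgcaaaGCGttcttt
svp: tgcGAAGGTtgcaaaTCTttcttc
kni: tgcGAGGGCtgcaagTCCttcttt
tll: tgtGATGGCtgcgccGGAttcttc
dsf: tgcGATGGCtgctccGGTtttttc
Hr83: tgcGATGGGtgctccTGCtttttc
The sequence of Hr51 is not shown. In Release 6 these bases lie at chr2L:8689852-8689875 on the minus strand for Hnf4, at chr3L:21496554-21496577 on the minus strand for Hr78, at chr3R:25025613-25025636 on the plus strand for Hr96 and at chr3L:8184613-8184636 on the minus strand for ERR, in each case inside 1 coding exon. For Hr83 and tll, both on the plus strand of 3R, they also lie in 1 exon, at chr3R:6349312-6349335 and chr3R:30852818-30852841. An intron splits them in svp, dsf and kni, of 7959, 57 and 215 bases. The bases in capitals are different in all 9 genes, but some of these differences are silent. By the genetic code the capitals of Hnf4, tll and dsf code for the same residues, and so do those of svp and kni. Over the 36 pairs the 24 bases differ at 2 to 12 positions, with a median of 6. The closest pair is Hnf4 and Hr78, which differ at 2 positions, 1 of them in the capitals. The first capital codon is GAT in Hr83, dsf and tll and in no other line, and it codes for the same residue as the GAC of Hnf4.

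The S2 cells expressed 4 of the 10 receptors. Hnf4, Hr78, Hr96 and ERR were at 1 FPKM or more in both conditions, each with a lower bound above 5 FPKM, while Hr51, Hr83, svp, dsf, tll and kni were under 1 FPKM in both. Of all genes, 48.8% reached 1 FPKM with DMSO and 48.8% with 20E. The level of a gene is a property of the bulk culture, in which fewer cells with a transcript and less of it per cell cannot be told apart.

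Hnf4, the fly homolog of hepatocyte nuclear factor 4 (FBgn0004914), stood highest of them. It was at 60.5 FPKM with DMSO with bounds of 47.6 and 73.5, and 87.2% of all genes were lower. In 20E it was at 45.1 FPKM with bounds of 35.4 and 54.9, above 83.0% of all genes. The level was lower in 20E, and the bounds of the conditions overlap.

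Hr78 (FBgn0015239) was at 41.0 FPKM with DMSO, between bounds of 32.1 and 49.9, and also at 41.0 FPKM with 20E, between 32.0 and 50.0. Hr96 (FBgn0015240), a relative of the vertebrate vitamin D and xenobiotic receptors, was at 12.0 FPKM with DMSO, between bounds of 9.16 and 14.8, and at 12.7 FPKM with 20E, between 9.72 and 15.6. ERR (FBgn0035849), the estrogen-related receptor of flies, was at 8.32 FPKM with DMSO, between bounds of 5.68 and 10.9, and at 7.83 FPKM with 20E, between 5.32 and 10.3. The bounds of the conditions overlap over most of their width for these 3 genes.

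Since FPKM is scaled to length, the levels of the 4 genes can be ordered. In both conditions the order was Hnf4, Hr78, Hr96 and ERR. Only the step between Hr78 and Hr96 had bounds apart, so Hnf4 and Hr78 stood above Hr96 and ERR, and the bounds within each pair overlap. At 3 of these loci another annotated gene could share reads. ERR overlaps 9 exon bases of CG7979 (Uxs in the BDGP6 annotation), which was at 6.50 FPKM with DMSO and 6.42 FPKM with 20E, and 416 and 735 exon bases of the antisense genes asRNA:CR45869 and asRNA:CR45870 of BDGP6, which were not analysed here. Hr78 shares 443 exon bases with the antisense gene CR43933, at 0.555 FPKM with DMSO and 0.623 FPKM with 20E, and Hnf4 shares 180 with asRNA:CR44992. Whether the counting used strand is not given in the sources used here, so reads of a receptor and its antisense partner cannot be told apart.

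**Figure D1:**
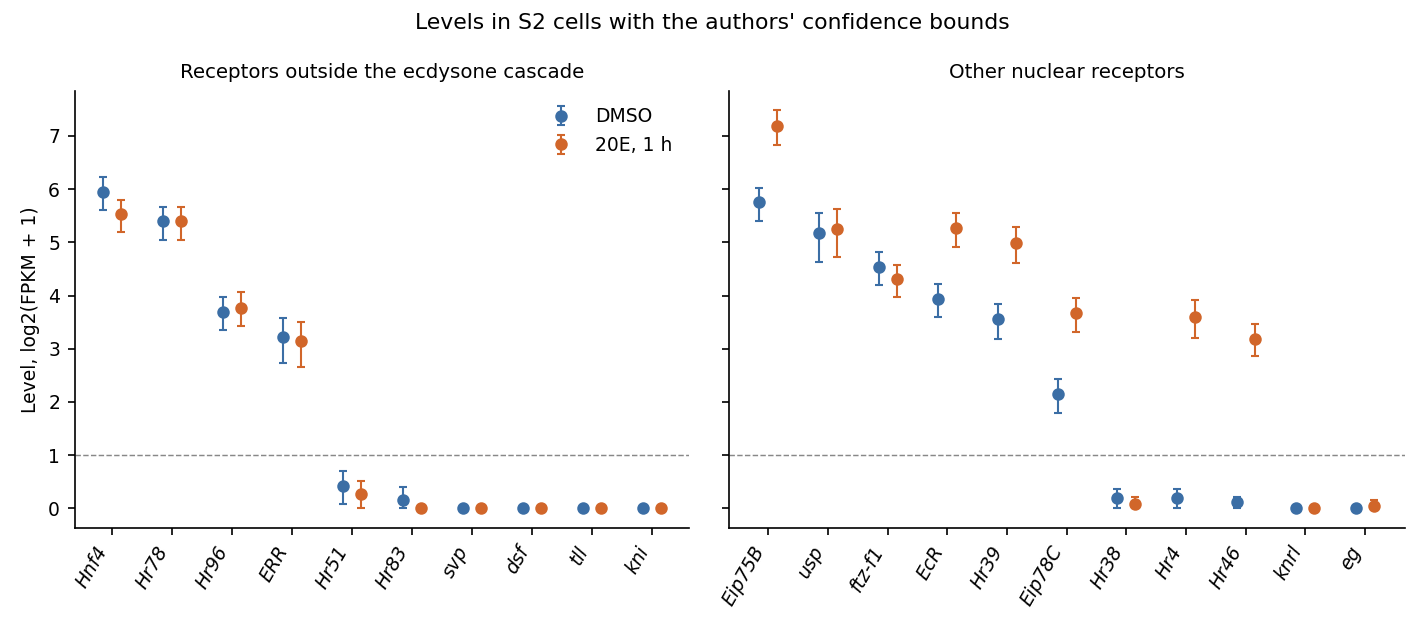
Levels of the 10 receptors outside the ecdysone cascade (left) and of 11 other nuclear receptors (right), as log2(FPKM + 1), in DMSO (blue) and after 1 h of 20E (orange). Points are the authors' value per condition, bars run between the authors' confidence bounds and the dashed line is 1 FPKM. Blue and orange bars overlap for each gene on the left, where 4 genes lie above the line, and lie apart for 6 genes on the right.

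The other 6 genes had little or no signal. Hr51 (FBgn0034012, also called unfulfilled) was at 0.342 FPKM with DMSO, with bounds of 0.0608 and 0.623, and at 0.209 FPKM with 20E, with bounds of 0 and 0.425. Hr83 (FBgn0037436), a relative of tll and dsf, was at 0.114 FPKM with DMSO (bounds 0 and 0.329) and is listed at 0 in 20E. For both genes the bounds of the conditions overlap and reach 0 in at least 1 condition.

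Low values in the deposited table could be fitted with whole steps of 1 fragment, which gives an estimate of the depth behind them. The steps were fitted on single-transcript genes. Among their values of a few steps, 93.6% of 346 in DMSO and 90.1% of 322 in 20E lay within 0.15 of a whole number. A scale not fitted to the data would give 30%. The scale was fitted on low values of the same genes, so 30% is not the share expected by chance here. On the fitted scales 1 FPKM stood for 1.47 times as many fragments with 20E as with DMSO. On that scale Hr83 in DMSO stood for 6.02 fragments. Hr51 stood for about 53.5 fragments in DMSO and 48.5 in 20E, taking the length of its BDGP6 transcript, 2089 bases. That 1 step is 1 fragment was assumed. The fit was weaker in 20E, with a score (higher for a closer fit) of 0.535 against 0.859 in DMSO. The bounds of Hr51 in DMSO, 0.0608 and 0.623 FPKM, are wider than the counting of so many fragments alone would give. The reason was not tested.

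The remaining 4 genes, svp, dsf, tll and kni, are listed at exactly 0 in both conditions, with bounds at 0. In all, 24.5% of genes are listed at 0 in both. A listed 0 can also be a failed estimate in this table, so these 4 genes are not called absent. In the locus that the table gives to svp, the neighbours CG17738 and Sfp87B are also listed at 0 in both conditions, as is CR43926 beside dsf.

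None of the 10 receptors met the criterion for a change with 20E. Bounds were apart for 0 of 10, where 0.506% of all genes had bounds apart, 0.43% with the higher value in 20E and 0.0769% with the lower, and where the share was 0.958% among genes with a mean of at least 1 FPKM. The ratio of FPKM + 1 was above 2 for 0 of 10 and under 0.5 for 0 of 10, against 0.295% and 0.0321% of all genes, except that with a pseudocount of 0.1 the ratio of Hr83 was under 0.5. At such shares a count of 0 in 10 is near the background and is not a result about these genes. The median log2 change of FPKM + 1 was -0.00056 over the 10 receptors and 0 over all genes, and both medians include genes listed at 0. Over the 4 expressed receptors it was -0.04, against 0.0022 over the 7617 genes with a mean of at least 1 FPKM.

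Hnf4 had the largest log2 change of FPKM + 1 among the 10, but not with a pseudocount of 0.1, where the log2 change was -1.09 for Hr83 and -0.52 for Hr51 against -0.42 for Hnf4, nor without one, where the ratio of 20E to DMSO was 0.610 for Hr51. The value of Hnf4 in 20E was 0.746 times that in DMSO, and the log2 change of FPKM + 1 was -0.42. The authors' bounds allow a change of between -1.03 and 0.20 on that scale. Of the 5903 genes with a mean of at least 10 FPKM, 35 (0.593%) had a change at or below that of Hnf4, and 50 (0.847%) had bounds apart in either direction, so the difference is at the low end of the table without passing the criterion.

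For the other expressed receptors the ratio of 20E to DMSO was 0.999 for Hr78, 1.06 for Hr96 and 0.942 for ERR. The bounds would allow a log2 change of between -0.63 and 0.62 for Hr78, -0.56 and 0.71 for Hr96, and -0.92 and 0.76 for ERR. The criterion of bounds apart cannot tell a change within these ranges from no change, so equal expression is not shown.

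**Figure D2:**
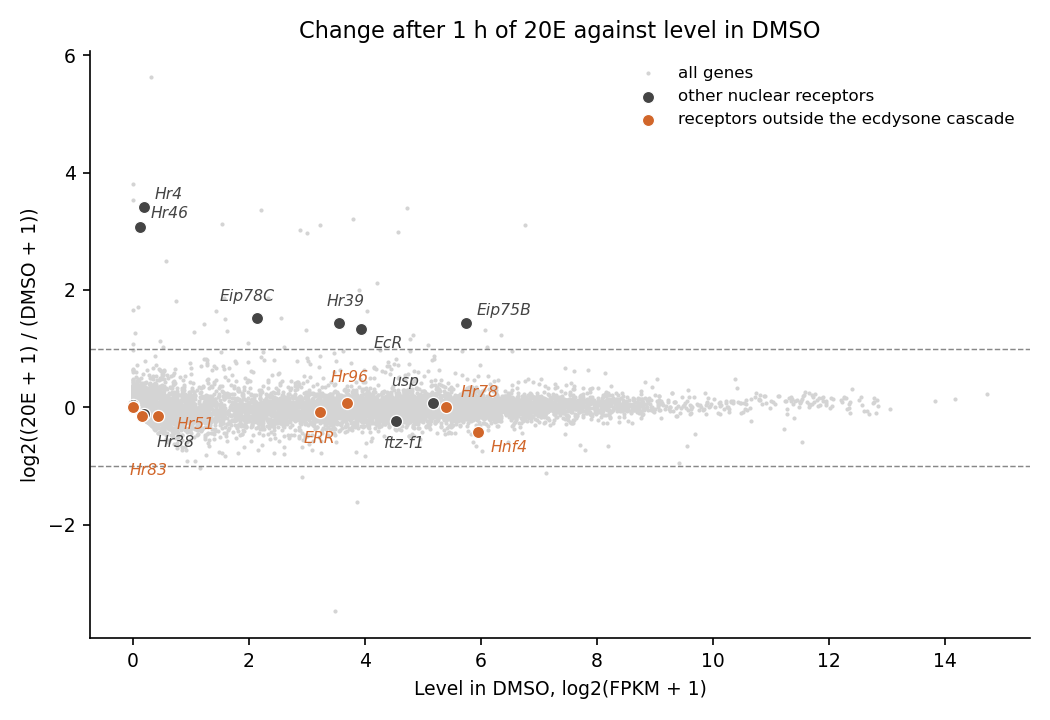
Change after 1 h of 20E, as log2((20E + 1) / (DMSO + 1)), against the level in DMSO, as log2(FPKM + 1), for all 15598 genes (grey), the 10 receptors outside the ecdysone cascade (orange) and 11 other nuclear receptors (dark). Dashed lines mark a ratio of 2 and of 0.5. The orange points lie between -0.42 (Hnf4) and 0.08 (Hr96), and svp, dsf, tll, kni and, among the dark points, knrl and eg share the unlabelled place at the left.

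The transcripts show which start sites carried the signal. Of the 22 transcripts of the 10 genes, 9 were at 1 FPKM or more in DMSO and 10 in 20E, where 43.4% and 43.7% of all transcripts were. The deposited transcript table gives no bounds, and FPKM values of overlapping transcripts of a gene are estimates that share the same reads. Start sites are those of BDGP6, matched by transcript identifier for 21 of the 22.

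Hnf4 was read from both ends of its set of start sites, which span 17833 bases on chromosome arm 2L. The transcript from the downstream site (FBtr0079748, start 8691209) was at 34.5 FPKM with DMSO and 26.5 FPKM with 20E. The one from the upstream site (FBtr0079747, start 8709042) was at 22.9 FPKM with DMSO and 17.3 FPKM with 20E. The downstream transcript held 57.0% of the FPKM of the gene in DMSO and 58.8% in 20E, and both transcripts were lower in 20E by similar ratios, 0.769 and 0.753. The third site (FBtr0112846, start 8699905) gave 2.33 FPKM with DMSO and 1.28 FPKM with 20E, and FBtr0079749, which is not in BDGP6, 0.785 FPKM and 0.0699 FPKM.

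Hr78 had nearly the same summed level in both conditions, while the values of its transcripts were further apart. FBtr0078392 was at 20.0 FPKM with DMSO and 13.5 FPKM with 20E, and FBtr0078390 at 10.6 FPKM and 7.41 FPKM. FBtr0078389 was higher in 20E, at 3.55 FPKM with DMSO and 10.97 FPKM with 20E, from 8.66% to 26.8% of the FPKM of the gene. FBtr0078391 was at 6.92 FPKM with DMSO and 7.33 FPKM with 20E. All 4 start at the same base of 3L in BDGP6 (21497494, minus strand), and FBtr0078389, FBtr0078390 and FBtr0078392 have the same coding bases, with lengths of 2266, 2311 and 2345 bases.

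A further Hr78 transcript, FBtr0303654, starts downstream at 21496941 and was at 0.0003 FPKM with DMSO and 1.77 FPKM with 20E. It and FBtr0078389 are the 2 transcripts of the 10 genes whose ratio of FPKM + 1 was above 2, and 0 were under 0.5. In all, 1.83% of transcripts had a ratio above 2 and 1.03% a ratio under 0.5. Among the 9017 transcripts at 1 FPKM or more in a condition that belong to genes with several transcripts, these shares were 5.57% and 3.23%.

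The signal of ERR lay on 1 of its 2 transcripts, FBtr0076724, at 8.32 FPKM with DMSO and 7.83 FPKM with 20E, while FBtr0076725, which starts 1001 bases downstream, is listed at 0 in both conditions. Hr96, Hr83, Hr51, tll and kni have 1 listed transcript each. The 3 transcripts of svp and the 2 of dsf are listed at 0.

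**Figure D3:**
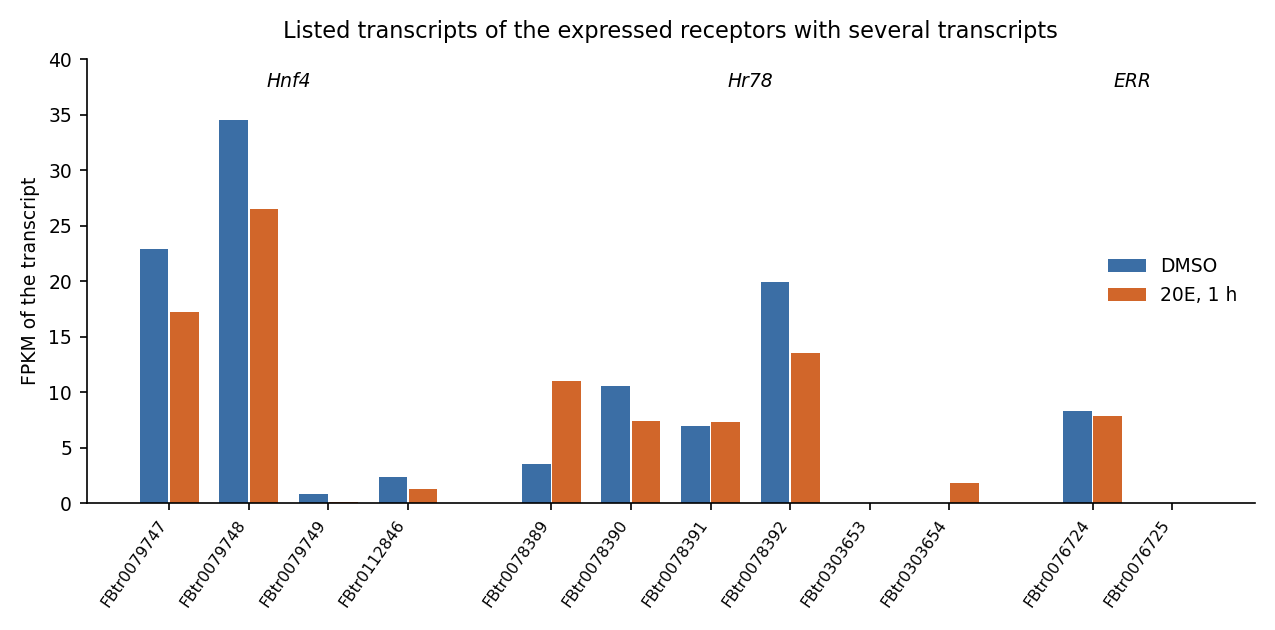
FPKM with DMSO (blue) and after 1 h of 20E (orange) of each listed transcript of Hnf4, Hr78 and ERR; there are no replicates or bounds for transcripts. FBtr0079747 and FBtr0079748 of Hnf4 were both lower in 20E, and FBtr0078389 of Hr78 was higher while FBtr0078390 and FBtr0078392 were lower.

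The other 11 nuclear receptor genes of the fly, which include those of the ecdysone cascade, are given for scale. Their difference from the 10 follows in part from how the groups were drawn and is not a result about the 10. Bounds were apart for 6 of the 11, EcR, Eip75B, Eip78C, Hr46, Hr4 and Hr39, with the higher value in 20E in each. Of all genes, 0.43% had bounds apart in that direction. The median log2 change of FPKM + 1 over the 11 was 1.33. The other 5, usp, ftz-f1, Hr38, knrl and eg, had overlapping bounds. In DMSO 10 of the 21 receptors were at 1 FPKM or more, and Hnf4 had rank 1, Hr78 rank 3, Hr96 rank 7 and ERR rank 9. Bounds of neighbours in this order overlap, except that ERR lay apart from Eip78C below it. In 20E 12 of the 21 were at this level. Hnf4 then had rank 2 behind Eip75B, with bounds apart, Hr78 rank 3, Hr96 rank 8 and ERR rank 12, its bounds overlapping those of Hr46 above it. The summed FPKM of the 10 genes was 122 in DMSO and 107 in 20E, and that of the 11 others 139 in DMSO and 300 in 20E, so the 10 genes held 46.8% of the receptor FPKM with DMSO and 26.3% in 20E.

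The 10 listed co-regulators of nuclear receptors were all expressed, and 1 of them rose with bounds apart. Bounds were apart in either direction for 0.506% of all genes and for 0.958% of those with a mean of at least 1 FPKM. All 10 of the list were at 1 FPKM or more in both conditions, where 48.8% of all genes were in each. Their median was 51.9 FPKM with DMSO and 51.7 FPKM with 20E. Bounds were apart for tai, a p160-type coactivator that works with EcR, which was at 26.0 FPKM with DMSO, between bounds of 20.4 and 31.5, and rose with 20E to 43.7, between 34.4 and 53.0, a log2 change of 0.73 in FPKM + 1. The highest of the others were alien, a corepressor and COP9 signalosome subunit, at 177 FPKM with DMSO and 161 FPKM with 20E, and the histone deacetylase Rpd3, at 151 FPKM and 158 FPKM. The corepressor CtBP was at 108 FPKM with DMSO and 102 FPKM with 20E, and the corepressor gro at 67.8 FPKM and 67.9 FPKM. The median log2 change of the list was 0.01, beside 0 over all genes.

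Genes of the kinds on which Hnf4, ERR and Hr96 are known to act in flies had bounds apart for 0 of 10, 0 of 12 and 0 of 11 genes, beside 0.506% of all genes and 0.958% of those with a mean of at least 1 FPKM. At these shares counts of 0 are near the background and are not a result about the lists. Of 10 genes of fatty acid beta-oxidation, 9 were at 1 FPKM or more in each condition, none had bounds apart and the median log2 change was 0.01. Mtpalpha, the alpha subunit of the mitochondrial trifunctional protein, was at 202 FPKM with DMSO and 203 FPKM with 20E. The acyl-CoA dehydrogenase gene CG7461 was at 173 FPKM with DMSO and 183 FPKM with 20E, scu at 136 FPKM and 140 FPKM, and Thiolase at 134 FPKM and 135 FPKM.

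All 12 glycolytic genes were at 1 FPKM or more, and none had bounds apart. Their values were higher in 20E for 11 of 12, with a median log2 change of 0.10 and a range from -0.03 to 0.24, where 5893 of all genes were higher and 5886 lower. Gapdh1 was at 439 FPKM with DMSO and 482 FPKM with 20E, and Gapdh2, for another glyceraldehyde-3-phosphate dehydrogenase, at 421 FPKM and 412 FPKM. The pyruvate kinase gene PyK was at 347 FPKM with DMSO and 395 FPKM with 20E, and the enolase gene Eno at 320 FPKM and 344 FPKM.

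Of 11 genes of sterol and lipid uptake, 5 were at 1 FPKM or more in DMSO and 6 in 20E, none had bounds apart and the median log2 change was 0.01. The housekeeping sterol carriers Npc2a and Npc1a were at 79.9 FPKM and 32.0 FPKM with DMSO, and at 83.8 FPKM and 32.2 FPKM with 20E. The gut genes of this list were near the bottom of the range, with mag, the lipase Magro, at 0.0282 FPKM with DMSO and 0.136 FPKM with 20E, and Npc1b listed at 0 in DMSO and at 0.0023 FPKM with 20E. Npc2g was at 6.17 FPKM with DMSO and 8.71 FPKM with 20E, and Npc2b at 5.37 FPKM and 7.12 FPKM.

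None of the 8 embryonic patterning genes that work beside tll and kni reached 1 FPKM in either condition, and none had bounds apart. The highest was the gap gene gt, at 0.532 FPKM with DMSO and 0.592 FPKM with 20E. The receptor tyrosine kinase gene tor, which acts before tll in the terminal system, was at 0.0573 FPKM with DMSO and 0.0113 FPKM with 20E.

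**Figure D4:**
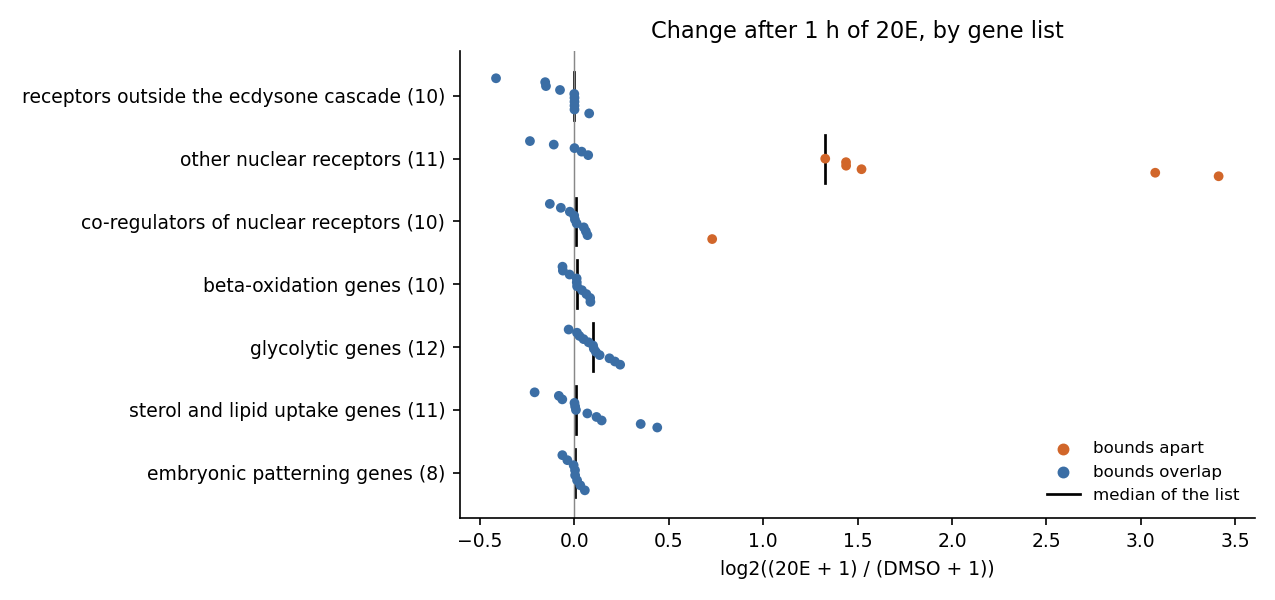
Log2 change of FPKM + 1 after 1 h of 20E for each gene (points) and the median (black line) of the 10 receptors outside the ecdysone cascade, the 11 other nuclear receptors and 5 lists of related genes, with the number of genes in brackets. Orange points have bounds apart: there are 6 among the other nuclear receptors, 1 (tai) among the co-regulators and 0 among the 10 receptors and the remaining lists.

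The identity of the cells was checked with marker lists. Of 12 hemocyte markers 9 were at 1 FPKM or more in each condition, among them the GATA factor srp at 106 FPKM with DMSO and 115 FPKM with 20E, but Hml, NimC1 and lz were at 0.104 FPKM or less in both. Summed hemocyte markers were at 441 FPKM with DMSO and 438 FPKM with 20E. Bounds were apart for eater alone, beside 0.506% of all genes and 0.958% of those with a mean of at least 1 FPKM. Neuron markers reached 1 FPKM for 1 of 4 (elav, at 3.63 FPKM with DMSO), muscle, fat body and gut markers for 0 of 4 each, and germ line markers for 2 of 4 (aub and bam), with the same counts in 20E. Summed markers of fat body were at 0.015 FPKM with DMSO and 0.0169 FPKM with 20E, and of gut at 0.214 and 0.160 FPKM. None of these other markers had bounds apart, and their part in the levels of the receptors was not tested.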

How the data were processed

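Only the RNA-seq was analysed here (DMSO against 20E for 1 h, 2 libraries each by the labels), not the 49 ChIP-seq and input samples. Deposited values are in FPKM, as the authors made them, with 1 column per condition for 15598 genes (with lower and upper confidence bounds, level not named) and 28704 transcripts. How the 2 libraries entered a column is not stated. Column names are those of Cuffdiff. The submitters' processing notes name TopHat2, Bowtie2 2.3.4.2 and the builds dm3 and dm6 with no role, and the aligner, counter and build of the RNA-seq are not given in the sources used here. Only 979 of 8719 genes whose locus holds no other gene have identical coordinates in BDGP6, so positions of the tables were not used. The transcript table also holds 5 columns of the authors' comparison (fold change, test statistic, p, q and call), which were not used.

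Changes were computed as log2((20E + 1) / (DMSO + 1)), and a gene was counted as higher or lower at a ratio of FPKM + 1 above 2 or under 0.5. No filter on low values was applied and no p-value was computed, since there are no replicate columns. The main criterion was whether the authors' bounds lie apart. The level and width of these bounds rest on the authors' model and were not checked. BDGP6 (Ensembl) gave transcript lengths, start sites and shared exon bases by identifier, and the Release 6 genome with its RefSeq annotation gave the P box bases, found by translating each coding sequence. Fragment steps were fitted on genes with 1 transcript of 1000 to 6000 bases, with lengths shortened by 195 bases in DMSO and 175 in 20E. The counts and the step fit were tested on simulated data without noise, with planted changes, fixed relative bounds and whole fragment numbers. This checks the computation only, not its performance at the noise of these data.

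The genes named are the 10 receptors, 11 other nuclear receptors and, from each list, genes with bounds apart and at most 4 others with the highest DMSO level. From the sterol list mag and Npc1b, and from the patterning list tor, were added after their values were seen; so were the marker genes named. The receptors and lists were chosen with earlier results of these data known. List symbols were matched to the table, 3 of them under another spelling or an older symbol (PyK, nimC1, n-syb) and srl as Spargel. Python 3.11.15, NumPy 2.4.6, pandas 2.3.3, Biopython 1.88 and Matplotlib 3.10.9 were used.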

Additional observations from a re-analysis of the deposited data

How the results depend on the processing

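No paired analysis was possible because the tables hold 1 column per condition and none per replicate, and for the same reason leaving out each replicate in turn was not run. With a pseudocount of 0.1 in place of 1, the count of receptors with a ratio under 0.5 went from 0 to 1. That receptor is Hr83, whose log2 change went from -0.16 to -1.09. Its DMSO value stood for about 6 fragments, by a scale fitted on longer transcripts. The log2 change of Hr51 went from -0.15 to -0.52 under the same setting, where its bounds allow -0.70 to 0.43 with a pseudocount of 1. Over the receptors the median change on the log2 scale was -0.00056 as reported and -0.04 over those with a mean of at least 1 FPKM. The count of transcripts in DMSO was 9 as reported, 10 at a limit of 0.5 FPKM and 7 at 5 FPKM, and that in 20E was 10, 10 and 8. The other counts at limits of 0.5 or 5 FPKM, with the lower bound in place of the value, from the transcript sums, with other pseudocounts and ratios, with a filter on the mean, or with 20E scaled by the median ratio (0.998) stayed within 1.5 times of those reported, and changes of the receptors other than Hr83 stayed inside the range that the authors' bounds allow with a pseudocount of 1. Some of these settings could hardly move a result, since transcript sums nearly equal the gene values and the scaling is close to 1. No receptor lay between 0.342 and 7.83 FPKM in either condition, so the receptor counts could not differ at limits of 0.5 and 5 FPKM. For Hnf4, Hr78, Hr96, ERR, Hr51 and Hr83 the authors' bounds of the conditions overlap, and smaller changes than they allow cannot be seen by that criterion. The part of depth in their width was not tested.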
